A study of Mus musculus with 106 samples.

Results

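H3K27ac, the acetyl mark carried by active promoters and enhancers, was compared between hematopoietic stem cell (HSC) preparations and unstimulated bone marrow-derived macrophages (BMDM) of diabetic mice. The samples were chosen by title: 6 lists of peaks of diabetic HSC and 5 lists of diabetic, unstimulated BMDM, 11 of the 106 samples and of the 70 samples with a list of peaks. In chromatin immunoprecipitation followed by sequencing (ChIP-seq), marked chromatin is pulled down with an antibody, and stretches rich in fragments are listed as peaks. All mice were C57BL/6J, aged 12 to 14 weeks. Both groups were made diabetic with streptozotocin, a toxin of the insulin-producing beta cells, at 42 to 45 mg/kg per day over 5 days. Marrow was collected 6 weeks after the injections, and mice had to exceed 13.9 mmol/L of blood glucose. HSC were marrow cells left after removal of cells bearing CD3, CD4, B220, Ter119 or Gr1, which enriches stem and progenitor cells without isolating them, and were not stimulated. BMDM were marrow cells grown for 7 days in medium conditioned by L929 cells, a source of the macrophage growth factor CSF1, with 5 mmol/L glucose, and then kept for 16 hours in medium alone. Diabetic, unstimulated BMDM replicate 3 stands among the samples as an input library only, without a list of H3K27ac peaks. Streptozotocin was shared by both groups, whereas 7 days of culture were not, so that cell type and culture cannot be told apart.

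Blood stem and progenitor cells keep their identity through a set of transcription factors, among them GATA2, RUNX1, TAL1, LYL1, LMO2, FLI1 and ERG, which bind enhancers together. Macrophage identity rests on PU.1 (encoded by Spi1), C/EBP, IRF and MAF factors, with PU.1 present at lower levels in progenitors already. Enhancers, which mostly lie away from start sites, differ more between blood cell types than promoters do, and H3K27ac marks those in use.

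Because peak height is set within each library, every list was cut to its 20000 intervals of lowest p value, and a promoter or distal region was given the rank percentile of its best interval. A value of 100 is the top of a list, and 0 means that no interval of the cut list lay there. Distal regions were stretches more than 1000 bp from every start site of a protein-coding gene. Of the distal regions described, 6 are shown by 150 bases of the GRCm38.p6 reference around a match to the letters AGATAA (bound by GATA factors) or GAGGAA (bound by PU.1 and other ETS factors). Capitals mark both sets of letters, and TGTGGT (bound by RUNX factors), on either strand, so that a match may read as its reverse complement. The windows were placed on the match nearest to the summit in the 600 bp around it, so the presence of a match in them is no result. Among all 14389 distal regions tested, 600 bp around the summit held AGATAA in 19.3%, TGTGGT in 37.1% and GAGGAA in 48.2%. The first 3 regions ranked higher in HSC and have AGATAA at the centre, from an intergenic stretch 60428 bp from Lmo2 (chr2:103896991-103897140), and from introns of Zfpm1 (chr8:122286969-122287118) and Prdm16 (chr4:154542696-154542845), all on the plus strand.
Lmo2 region 1: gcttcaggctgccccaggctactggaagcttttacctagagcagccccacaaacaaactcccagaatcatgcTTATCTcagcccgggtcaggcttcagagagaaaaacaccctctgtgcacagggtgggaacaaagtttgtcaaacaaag
Zfpm1 region 3: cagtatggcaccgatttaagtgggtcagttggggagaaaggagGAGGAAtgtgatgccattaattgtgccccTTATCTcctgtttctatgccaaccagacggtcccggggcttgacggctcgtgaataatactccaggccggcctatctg
Prdm16 region 1: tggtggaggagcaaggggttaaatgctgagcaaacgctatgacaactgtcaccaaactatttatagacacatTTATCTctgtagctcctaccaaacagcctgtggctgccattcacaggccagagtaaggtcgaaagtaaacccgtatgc
The next 3 ranked higher in BMDM: an intron of Spi1, the gene of PU.1, with AGATAA at the centre (chr2:91085959-91086108), and with GAGGAA at the centre intergenic stretches nearest to Pdgfb (chr15:80026561-80026710) and Zeb2 (chr2:45196956-45197105).
Spi1 region 2: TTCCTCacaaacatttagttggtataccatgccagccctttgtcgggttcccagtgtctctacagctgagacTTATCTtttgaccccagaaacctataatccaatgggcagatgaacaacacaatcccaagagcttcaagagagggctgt
Pdgfb region 1: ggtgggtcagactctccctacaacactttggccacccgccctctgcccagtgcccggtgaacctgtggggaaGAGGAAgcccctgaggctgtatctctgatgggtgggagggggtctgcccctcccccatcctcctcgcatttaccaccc
Zeb2 region 1: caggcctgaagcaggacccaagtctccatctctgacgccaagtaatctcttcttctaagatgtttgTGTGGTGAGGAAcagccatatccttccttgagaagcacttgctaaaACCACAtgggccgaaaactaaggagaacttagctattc
A promoter from each side is given from the RefSeq table (GRCm38.p6), cut where the first annotated start of the gene begins: 179 bases of Kit (chr5:75574737-75574915, plus strand) and 99 bases of C1qc (chr4:136893066-136893164, minus strand). GAGGAA or its reverse complement was found in both, against 17.1% and 9.91% of all 32851 RefSeq promoter windows read over the same bases.
Kit promoter: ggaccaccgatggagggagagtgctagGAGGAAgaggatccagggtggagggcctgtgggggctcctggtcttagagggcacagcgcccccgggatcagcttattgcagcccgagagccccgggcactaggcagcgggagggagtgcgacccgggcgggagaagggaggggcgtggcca
C1qc promoter: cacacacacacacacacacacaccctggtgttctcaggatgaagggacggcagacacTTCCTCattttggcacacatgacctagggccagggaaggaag

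The lists held 51162 to 130995 peaks in HSC and 54313 to 175991 in BMDM, a log2 difference of -0.11 (two-sided exact permutation test, p = 0.771). The last interval kept had a −log10 p between 8.75 and 19.7 in HSC and between 8.76 and 18.9 in BMDM, and read depth is unknown. Distal intervals made up 37.1% ± 1.89 of the cut list in HSC (SD, n = 6) and 38.9% ± 1.53 in BMDM (n = 5), which did not pass the test (exact permutation p = 0.136). Each of the 11 lists shared more of its regions with its own group than with the other. HSC list 6 was the shortest of its group and stood furthest from it, with a mean Jaccard index (regions shared as a share of regions held by either) of 0.554 with the other HSC lists, where these had 0.610 to 0.647. BMDM list 4, the shortest BMDM list, stood as far from its own group, with 0.550 where the other BMDM lists had 0.579 to 0.601. Results that turn on HSC list 6 are given with and without it, while counts per gene list were not made without BMDM list 4. The study's methods count individual animals as replicates, while the labels do not tie a list to an animal.

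The label of each group was checked by markers. Promoters of 3 of 7 stem and progenitor markers ranked higher in HSC: Kit and Flt3, receptors of progenitor growth factors, and Gata2. The other 4 did not pass, among them Cd34, Erg and Meis1, and Meis1 was at 44.7 ± 6.52 in HSC and 53.8 ± 8.78 in BMDM. Of 7 macrophage markers, 3 ranked higher in BMDM, Cd14 and Cd68 among them. Csf1r, the receptor of the macrophage growth factor, reached 25.2 ± 14.1 in BMDM and 4.45 ± 7.80 in HSC without passing (limma adjusted p = 0.0542). Adgre1, Mrc1 and Lyz2 entered fewer than 2 of the cut lists, and in the whole BMDM lists a peak stood at their promoters in 1, 3 and 0 of 5 samples. Several defining genes therefore did not pass at their promoters, which leaves a difference undecided, or were not tested. Of all promoters tested, 11.2% ranked higher in HSC and 6.59% in BMDM.

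The promoters of Car2, Nrp1 and Pdgfb were picked from these samples as markers of the comparison, so their values are a description without a test, and their part in the list counts is no independent evidence. Car2 (chromosome 3, 14886273 to 14900770) encodes a carbonic anhydrase that is abundant in red cell precursors. Its promoter ranked at 83.7, 78.7, 75.3, 83.3, 94.3 and 96.9 in HSC lists 1 to 6. In BMDM lists 1, 2, 4, 5 and 6 it was at 0, 42.4, 0, 0 and 49.0. All HSC lists lay above all BMDM lists, and 3 BMDM lists lacked the promoter in the cut list, although each whole BMDM list had a peak there.

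Nrp1 (chromosome 8, 128358604 to 128503363) encodes neuropilin 1, a co-receptor of semaphorins and VEGF. Its promoter was at 91.0, 93.0, 90.2, 89.9 and 86.3 in the BMDM lists and at 40.2, 48.9, 39.5, 0, 18.4 and 0 in the HSC lists. Pdgfb (chromosome 15, 79995874 to 80014977) encodes a growth factor for smooth muscle cells and pericytes. In BMDM it ranked at 97.8, 91.6, 86.0, 82.5 and 91.3, and in HSC at 41.5, 40.4, 36.4, 32.7, 0 and 0. For both genes the BMDM values were tight and high, and the HSC values ranged from the middle of the list to absence, lists 5 and 6 being lowest for Pdgfb.

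**Figure D1:**
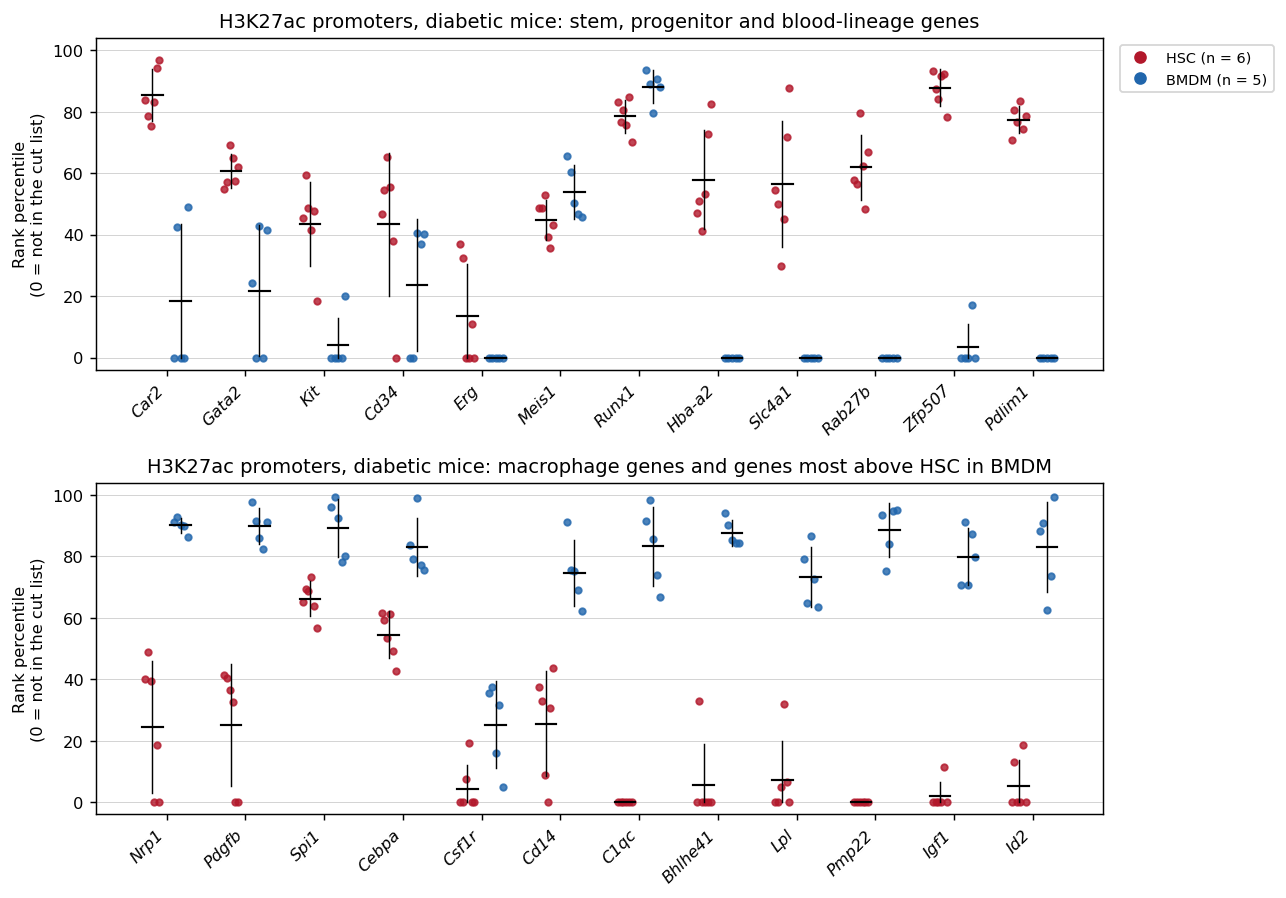
Rank percentile of H3K27ac promoters (0 to 100, y axis, 0 where the promoter was not in the cut list) in each of 6 HSC and 5 BMDM lists, with bars at the mean and lines of 1 SD cut at 0 and 100. Zfp507 and Pdlim1 were high in every HSC list and at or near 0 in BMDM, C1qc and Pmp22 were at 0 in every HSC list, and Meis1 and Runx1 overlapped between the groups.

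Across the genome, 13223 promoters were held by at least 2 of the 11 cut lists and tested. At a limma adjusted p under 0.05, 1485 ranked higher in HSC (11.2% of those tested) and 871 higher in BMDM (6.59%), with median differences of 29.9 and -27.5 percentile points, and 4307 had an unadjusted p under 0.05. The median over all promoters tested was 3.23 points towards HSC, and all 11 lists held 8689 promoters (65.7%). In contrast, of 14389 distal regions only 629 (4.37%) were held by all lists. Among these regions 692 ranked higher in HSC (4.81%) and 1067 higher in BMDM (7.42%), with median differences of 35.6 and -37.7 points. A region was held by every HSC and no BMDM list in 218 cases, and by every BMDM and no HSC list in 315. At promoters these patterns numbered 109 and 45. A feature at 0 in all lists of a group, here and below, entered through the other group alone. Its direction was therefore fixed by entry, and its test adds no evidence of direction. The groups did not overlap, HSC above, at 829 promoters (6.27%) and 402 distal regions (2.79%), and BMDM above, at 612 promoters (4.63%) and 655 distal regions (4.55%). With HSC list 6 left out, 1443 and 765 promoters and 686 and 947 distal regions were called. Leaving out BMDM list 4 gave 1392 and 831 promoters and 596 and 1060 distal regions. The promoter counts depended on equal length: in the lists as deposited, 51 and 24 promoters passed. Of the genes in the lists that follow, 7 promoters were called in those, among them Hba-a2, Hemgn, Epb42, Ermap, Gfi1b and C1qa.

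**Figure D2:**
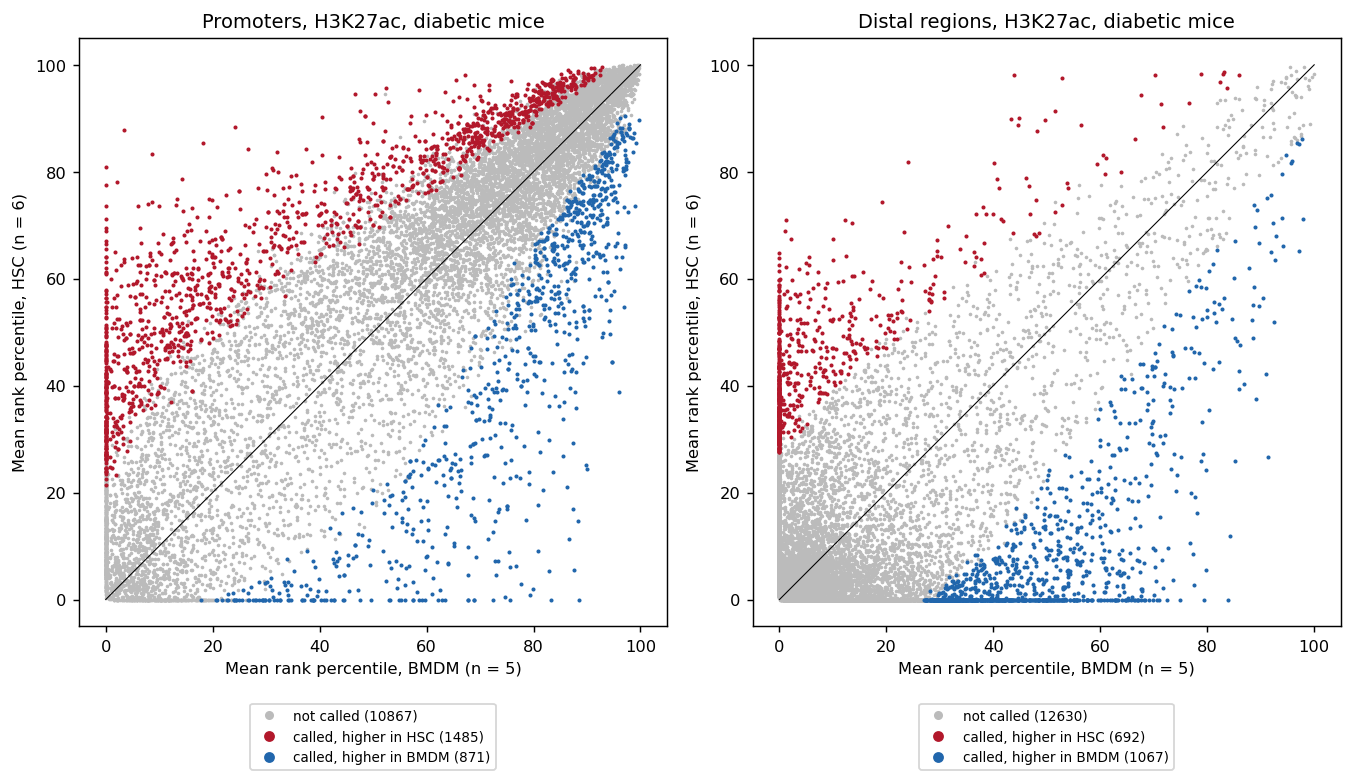
Mean rank percentile in HSC (y axis, n = 6) against BMDM (x axis, n = 5) for 13223 promoters and 14389 distal regions, with the 1485 and 692 called higher in HSC in red and the 871 and 1067 called higher in BMDM in blue. Most promoters lie high in both groups near the line of equal rank, whereas most distal regions lie near 0 in at least 1 group.

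Of the 7 factors that act together in stem cells, Gata2 alone ranked higher in HSC at its promoter, and none ranked higher in BMDM. Over all promoters 11.2% were called in HSC and 6.59% in BMDM, so the count is near that share and no result about the 7. The median difference of the 7 was 0.165 points. Gata2 (chromosome 6, 88193891 to 88207032), a regulator of stem cell survival, was at 54.7, 59.6 and 69.3 in HSC (lowest, median and highest) and at 24.4, 0, 43.0, 0 and 41.7 in BMDM. The groups did not overlap, and the difference was 39.1 points (SE 9.40, adjusted p = 0.00953). The promoters of Tal1, Lmo2 and Lyl1 were held by all 11 lists at like ranks. Fli1, an ETS factor, was at 81.2 ± 9.47 in HSC and 92.3 ± 6.82 in BMDM (adjusted p = 0.0900). Tal1 stood at 89.9 ± 8.55 in HSC and 89.7 ± 5.90 in BMDM. Runx1 (chromosome 16, 92601466 to 92826149), which is needed for the first blood stem cells and acts in myeloid cells too, stood at 78.5 ± 5.45 in HSC and 88.2 ± 5.27 in BMDM (adjusted p = 0.0696). Erg entered 3 of 6 HSC lists and no BMDM list, at 13.4 ± 17.1 (adjusted p = 0.215).

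Among 20 other stem and progenitor factors, 7 ranked higher in HSC (11.2% over all promoters) and 2 higher in BMDM (6.59% over all). The 7 included Myb, Bcl11a, Ikzf2, Hlf, Gfi1 and Hoxa9, factors of progenitor growth, stem cell quiescence and lymphoid or myeloid choice. Myb, without which definitive blood formation fails, was at 66.8 ± 8.86 in HSC and 15.1 ± 21.8 in BMDM (adjusted p = 0.0021). Hoxa9 was at 40.5 ± 20.7 in HSC and absent from every cut BMDM list. The 2 that went the other way were Hhex and Myc, the latter at 62.5 ± 4.30 in HSC and 79.3 ± 11.9 in BMDM. Etv6, Sox4, Zfpm1 and Meis1 were held by all 11 lists and did not pass. Of 12 surface genes tested, Kit, Flt3, Cd27 and Epor ranked higher in HSC and none in BMDM. Kit (chromosome 5, 75574916 to 75656722), the receptor of stem cell factor, was at 18.4, 46.6 and 59.6 in HSC (lowest, median, highest), and at 0, 0, 0, 0 and 20.1 in BMDM. HSC list 6, the lowest of its group, lay under BMDM list 6, so the groups overlapped (difference 39.5 points, SE 8.13, adjusted p = 0.00361). Cd34, a marker of progenitors, was at 43.4 ± 23.2 in HSC and 23.6 ± 21.6 in BMDM (adjusted p = 0.266). Without HSC list 6, these 3 lists gave 1, 8 and 4 calls towards HSC and 0, 1 and 0 towards BMDM, with Mecom and Mycn gained and Ikzf2 and Myc lost.

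Against 11.2% of all promoters called in HSC and 6.59% in BMDM, red cell genes formed the list with the most called in HSC. These were 9 of 18 tested, with 0 called in BMDM and a median difference of 30.5 points. The 9 were Car2, the alpha globin genes Hba-a1 and Hba-a2, the beta globin gene Hbb-bs, the membrane and cytoskeleton genes Slc4a1, Sptb and Epb42, the transferrin receptor gene Tfrc, and Hemgn. Hba-a2 (chromosome 11, 32296489 to 32297298) was at 41.4, 52.1 and 82.5 in HSC (lowest, median, highest) and at 0 in all BMDM lists (adjusted p = 0.00029). Hba-a1 behaved in the same way, but as a near-identical copy whose reads cannot be placed with certainty it adds no independent value. Slc4a1, the band 3 anion exchanger (chromosome 11, 102348824 to 102366203), was at 29.7, 52.1 and 87.7 in HSC and at 0 in BMDM (difference 56.4 points, SE 9.42, adjusted p = 0.000831). In the whole lists, 5 of 5 BMDM samples had a peak at the Slc4a1 promoter and 3 of 5 at that of Hba-a2. Ank1, Tal1 and Klf1 were held by all 11 lists and did not pass, nor did Gata1, which entered 3 HSC lists.

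The red cell genes also set HSC lists apart from each other. Rank percentiles summed over the 19 genes that entered a cut list were 901, 755, 758, 897, 1146 and 1343 in HSC lists 1 to 6. In BMDM they were between 281 and 459. Of the 19 promoters, 12 were at 0 in all BMDM lists and so entered through HSC lists alone. For those 12 the direction, in this sum and in the calls, was fixed by entry. HSC lists 5 and 6 were the highest for this sum, and list 6 held all 19 promoters where the others held 13 to 18. The 9 calls were the same genes with list 6 left out. Ter119, an antigen of maturing red cells, was among the antigens used for depletion. In bulk chromatin, fewer cells of a type and less mark per cell cannot be told apart, so the part of red cell precursors in these ranks was not tested.

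Other marrow lineages had 2 to 9 promoters tested per list, where 11.2% of all promoters were called in HSC and 6.59% in BMDM. In the megakaryocyte list 2 of 9 promoters ranked higher in HSC and none in BMDM. Rab27b, a small GTPase of platelet granule release, was at 61.9 ± 10.7 in HSC and 0 in BMDM, and Gp9, a subunit of the platelet receptor for von Willebrand factor, was at 41.6 ± 12.7 and 0. Each whole BMDM list had a peak at the Rab27b promoter. In the granulocyte list 0 of 7 ranked higher in HSC and 1 higher in BMDM, Csf3r, the receptor of the granulocyte growth factor, at 20.5 ± 15.9 in HSC and 49.9 ± 7.56 in BMDM. Without HSC list 6, Prtn3 was called in HSC as well. Mpo, Elane and Ctsg, which define granulocyte precursors, entered 2 of 6 HSC lists each and no BMDM list. In the lymphoid list 2 of 8 ranked higher in HSC, Lck and Cd3d. Lck, a kinase of the T cell receptor, was at 51.2 ± 5.97 in HSC and 12.3 ± 25.6 in BMDM. A start of Cd3g lies so near that of Cd3d that the windows overlap. Zbtb46, a factor of classical dendritic cells, and Ccr9, a chemokine receptor whose window overlaps that of Slc6a20a, were the only 2 dendritic or mast cell promoters tested and both ranked higher in HSC. In the stromal and endothelial list 1 of 4 passed, Thy1, which lymphocytes carry too. Of the 9 that entered a cut list, 5 were at 0 in all BMDM lists and 2 in all HSC lists. Summed ranks overlapped between the groups for the megakaryocyte list (253 to 373 in HSC, 155 to 287 in BMDM), the granulocyte list (52.1 to 179 against 76.6 to 158), the lymphoid list (180 to 344 against 77.5 to 244) and the stromal and endothelial list (21.9 to 149 against 0 to 78.4). For the dendritic and mast cell list, with 2 promoters, the sums did not overlap (119 to 145 in HSC, 15.9 to 87.1 in BMDM). The part of these cells in the HSC values was not tested.

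**Figure D3:**
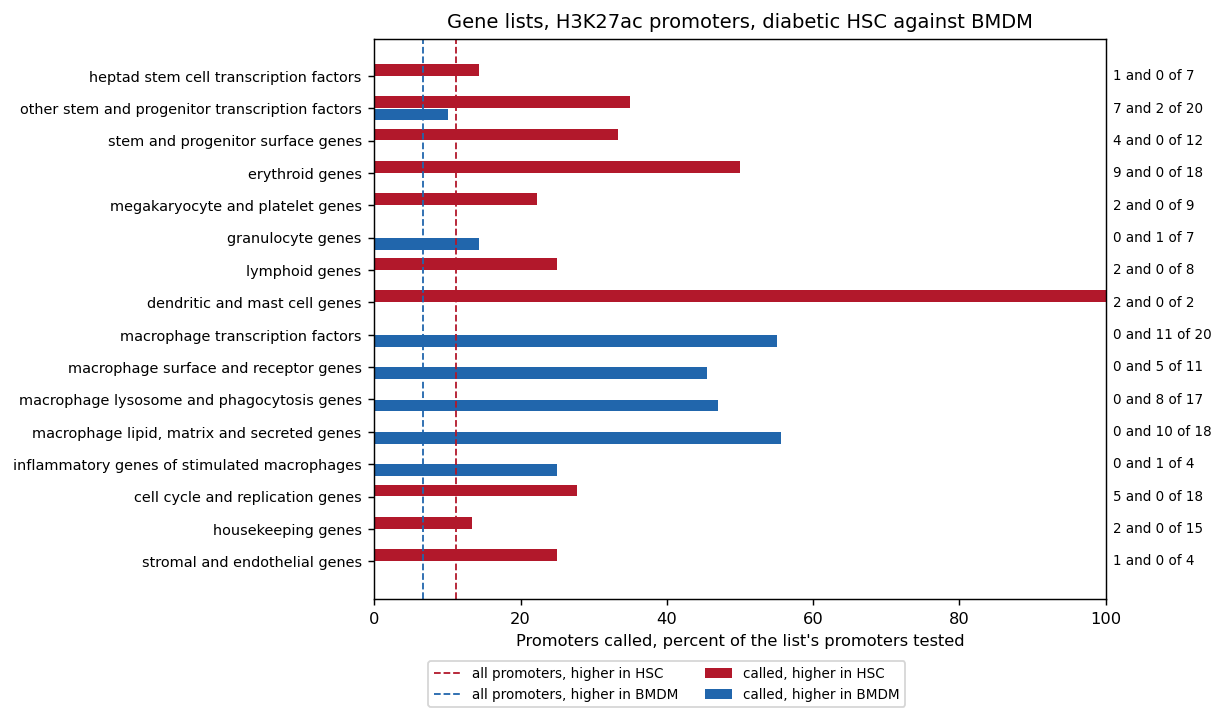
Promoters called higher in HSC (red bars) or BMDM (blue bars) as a percent (x axis) of each list's promoters tested, with counts at the right and dashed lines at 11.2% and 6.59%, the shares over all promoters. Red cell genes stand at 9 of 18 in HSC, the macrophage lists at 5 to 11 calls in BMDM with 0 in HSC.

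Macrophage transcription factors ranked higher in BMDM at 11 of 20 promoters (6.59% over all promoters) and in HSC at 0 (11.2% over all). Their median difference was -20.3 points. Bhlhe41, a repressor found in tissue macrophages, was at 87.7 ± 4.28 in BMDM and entered 1 of 6 HSC lists. Spi1 (chromosome 2, 91082390 to 91115756) was marked in all 11 lists, at 56.8, 66.9 and 73.1 in HSC (lowest, median, highest) and at 96.2, 99.2, 92.5, 78.1 and 80.1 in BMDM. Every BMDM value lay above every HSC value, a difference of -23.0 points (SE 4.76, adjusted p = 0.00371). Cebpa, which directs progenitors to the myeloid line, was at 54.5 ± 7.53 and 82.9 ± 9.41 (adjusted p = 0.00367). Irf8, Maf, Pparg, Atf3, Zeb2, Klf4 and Creg1 were also called. Of those called, Bhlhe41 and Irf8 (6.48 ± 9.01) were low or absent in HSC, whereas Zeb2 (85.7 ± 7.25) and Creg1 (83.6 ± 6.36) ranked high in HSC and higher in BMDM. Cebpb, Egr1, Egr2, Nr1h3 and Tfe3 were among the 9 that did not pass, Egr1 with 89.5 ± 4.77 in HSC and 59.5 ± 33.8 in BMDM (adjusted p = 0.0622).

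Of 11 surface and receptor genes tested, 5 ranked higher in BMDM (Cd14, Fcgr3, Cd68, Mertk and Nrp1) and 0 in HSC, against 6.59% and 11.2% over all promoters. Cd14, a co-receptor for lipopolysaccharide, was at 91.2, 75.6, 75.4, 69.0 and 62.1 in BMDM and at 0, 31.8 and 43.6 in HSC (lowest, median, highest; difference -49.1 points, SE 9.26, adjusted p = 0.00203). Mertk, a receptor for the uptake of dying cells, was at 51.9 ± 14.9 in BMDM and 9.0 ± 15.7 in HSC. The Cd68 window overlaps that of Eif4a1, a translation factor gene that every cell uses. Among lysosome and phagocytosis genes, 8 of 17 ranked higher in BMDM and 0 in HSC, with a median difference of -8.84 points. The widest gap was at Gpnmb, a glycoprotein of loaded lysosomes, with 69.3 ± 13.1 in BMDM and 7.87 ± 14.3 in HSC. Lgmn, a lysosomal protease, was at 56.4 ± 4.60 and 14.2 ± 17.8. Lamp1, Psap, Hexa, Cd63, Ctsl and Lipa were held by all 11 lists and ranked higher in BMDM. Ctsb, Ctsd, Grn and Npc2 did not pass. The Hexa window overlaps that of Tmem202.

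Lipid, matrix and secreted genes had 10 of 18 promoters called in BMDM (6.59% over all promoters) and 0 in HSC (11.2% over all). Their median difference was -27.6 points. C1qc, a chain of complement C1q (chromosome 4, 136889804 to 136893065), whose sequence stands above, was at 91.4, 98.4, 85.7, 73.8 and 66.9 in BMDM and at 0 in all cut HSC lists (adjusted p = 1.17e-05). In the whole lists, 4 of 6 HSC samples had a C1qc peak. C1qa followed it at 40.9 ± 26.4 in BMDM and 0 in HSC. Lpl, lipoprotein lipase (chromosome 8, 68880491 to 68907448), was at 79.3, 64.7, 86.7, 72.7 and 63.6 in BMDM and at 0, 2.5 and 32.1 in HSC (lowest, median, highest; adjusted p = 0.000110). The fatty acid carriers Fabp4 and Fabp5, the lectin Lgals3, the protease inhibitor Timp2, Vegfa and Thbs1 were called as well, with Pdgfb. Apoe, Plin2, Abca1 and Hmox1 did not pass. Of the inflammatory genes that stimulated macrophages switch on, only 4 entered at least 2 cut lists, and 1 passed, Nos2, at 30.7 ± 22.3 in BMDM and 2.5 ± 4.86 in HSC. Il6, Il1b, Il12b, Cxcl9 and Cxcl10 were among those not tested. Without HSC list 6 the 5 macrophage lists gave 10, 5, 8, 9 and 0 calls in BMDM, and 1 surface gene, Cd163, was called in HSC.

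Cell cycle and replication genes ranked higher in HSC at 5 of 18 promoters (11.2% over all promoters) and in BMDM at 0 (6.59% over all). Their median difference was 14.8 points. Mcm3, Mcm5, Mcm6 and Mcm7 encode subunits of the replicative helicase, and Mki67 a protein of dividing cells. Mki67 was at 87.3 ± 5.51 in HSC and 66 ± 15.8 in BMDM (adjusted p = 0.0211). Mcm6 was at 82.8 ± 4.49 and 43.5 ± 29.1. All 18 promoters were held by every HSC list. The Mcm7 window overlaps that of Ap4m1. Without HSC list 6, Mcm3 was no longer called. As a reference, 15 housekeeping genes gave 2 calls in HSC (Polr2a and Rpl13a) and 0 in BMDM, and their summed ranks did not overlap either, with 1170 to 1254 in HSC and 1046 to 1159 in BMDM. The shift of the housekeeping median was 2.99 points, close to the 3.23 points over all promoters.

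Outside the lists, the promoters with the widest gaps were named by size. In HSC these were Zfp507, C530008M17Rik, Pdlim1 and Slc25a21. Zfp507, a zinc finger gene (chromosome 7, 35772343 to 35803003), was at 78.2, 89.6 and 93.4 in HSC (lowest, median, highest) and at 17.1 in BMDM list 5 and 0 in the other 4 (difference 84.5 points, SE 7.12, adjusted p = 9.05e-06). Pdlim1, which encodes a protein of the actin cytoskeleton, was between 70.8 and 83.5 in HSC and at 0 in BMDM. In the whole BMDM lists, 3 of 5 samples had a Pdlim1 peak. In BMDM they were Pmp22, Edil3, Igf1 and Id2. Pmp22, best known as a protein of peripheral myelin (chromosome 11, 63128982 to 63159547), was at 93.5, 75.3, 84.1, 94.7 and 95.2 in BMDM and at 0 in all HSC lists. Igf1, insulin-like growth factor 1, was at 79.9 ± 9.34 in BMDM and 1.90 ± 4.65 in HSC. Id2, an inhibitor of E proteins, was at 83.0 ± 14.7 and 5.29 ± 8.40.

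At distal regions of listed genes, assigned by the nearest start site of a protein-coding gene, 67 of 441 regions tested were called, near 50 genes. Of the 441, 23 ranked higher in HSC (5.22%), near the 4.81% over all distal regions, and 44 in BMDM (9.98%, against 7.42%). The 7 factors that act together in stem cells had 3 of 61 regions called in HSC and 2 in BMDM, and the other stem and progenitor factors 4 and 2 of 73. Of the 67 called, 9 were held by all HSC and no BMDM lists, and 14 by all BMDM and no HSC lists. In all, 12 were held by no BMDM list and 20 by no HSC list, and for these the direction was fixed by entry. Runx1 had 33 distal regions tested, of which 29 did not pass and 4 were called, 2 each way, all in introns of the gene. Region 3 (chr16:92800917-92802214) was at 52.1, 52.0, 38.5, 62.2, 41.5 and 46.2 in HSC and at 19.5, 12.5, 0, 0 and 0 in BMDM (difference 42.3 points, SE 9.03, adjusted p = 0.0007). Region 4 (chr16:92819582-92820993) was at 10.7 to 47.3 in HSC and at 0 in BMDM (adjusted p = 0.0406). Regions 1 (chr16:92673659-92675948) and 2 (chr16:92676050-92676863) were at 0 in all HSC lists. In BMDM they were at 19.5 to 52.0 and 20.4 to 53.5 (adjusted p = 0.00546 and 0.0108).

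**Figure D4:**
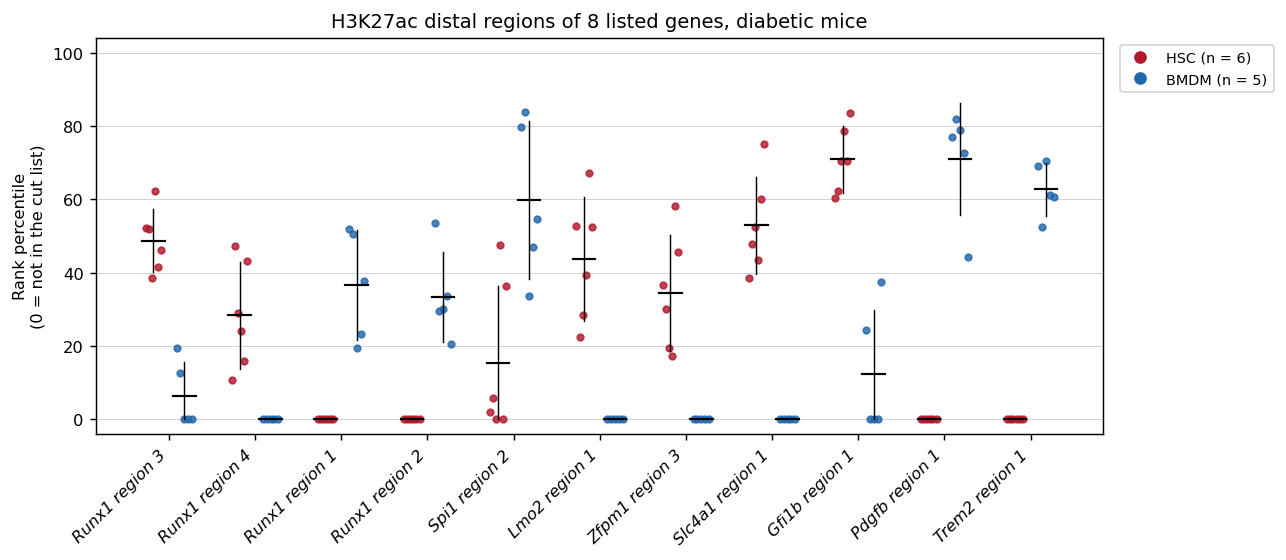
Rank percentile (y axis, 0 where the region was not in the cut list) of 11 distal H3K27ac regions nearest to 8 listed genes in 6 HSC and 5 BMDM lists, with means and lines of 1 SD cut at 0 and 100. Runx1 regions 3 and 4 ranked higher in HSC and regions 1 and 2 were at 0 in every HSC list.

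Spi1 region 2 (chr2:91085577-91086984), in an intron of the gene, was at 79.8, 83.8, 33.7, 47.0 and 54.5 in BMDM and at 2.07, 5.94, 0, 47.5, 0 and 36.4 in HSC (difference -44.4 points, SE 10.1, adjusted p = 0.00148). Here the groups overlapped through HSC lists 4 and 6. Zfpm1, which encodes the GATA partner FOG1, had 2 regions called each way. The 2 called in BMDM lay 131570 and 50183 bp from its start, in introns of Gm20388 alone. The paper left Gm20388, a very long transcript that spans other genes, out of its RNA-seq annotation. Region 3, in an intron (chr8:122285863-122289059), was at 17.2, 33.3 and 58.2 in HSC (lowest, median, highest) and 0 in BMDM. Lmo2 region 1 (chr2:103893923-103897558) was at 22.4, 45.9 and 67.2 in HSC and 0 in BMDM (adjusted p = 0.000919), although the Lmo2 promoter stood at 87.2 ± 5.36 and 86.7 ± 9.92. Gfi1b region 1 (chr2:28600150-28603769), near a repressor gene of the red cell and platelet lines, was at 60.2, 70.4 and 83.6 in HSC and at 24.3, 0, 0, 0 and 37.3 in BMDM. Slc4a1 region 1, Vwf region 1, Rhd region 1 and Prdm16 region 1 were likewise at 0 in all BMDM lists. Sptb had 2 regions called in BMDM while its promoter was called in HSC.

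Genes of the macrophage and inflammatory lists had 37 of 198 distal regions called in BMDM (18.7%, against 7.42% over all distal regions) and 3 in HSC (1.52%). Regions at 0 in all HSC lists, such as those at Pdgfb and Trem2 below, add to this count with a direction fixed by entry. The calls in BMDM were 10 of 63 near transcription factors, 8 of 37 near surface genes, 6 of 45 near lysosome genes, 12 of 45 near lipid, matrix and secreted genes and 1 of 8 near inflammatory genes. Pdgfb region 1 (chr15:80023816-80028183, 8839 bp from the start) was at 77.0, 81.9, 79.0, 72.6 and 44.2 in BMDM and at 0 in all HSC lists (difference -70.9 points, SE 9.0, adjusted p = 4.16e-07). Trem2 region 1 (chr17:48347847-48349573), touching an exon of the gene of a lipid-sensing receptor whose promoter entered too few lists to be tested, was at 69.0, 52.3, 70.4, 61.3 and 60.6 in BMDM and 0 in HSC. Ctsb region 1 was at 71.6 ± 12.4 in BMDM and 7.41 ± 12.8 in HSC, while the Ctsb promoter did not differ beyond the spread (adjusted p = 0.545). Lgals3 had 3 regions called in BMDM, and Lpl, C1qb, Abca1, Fcgr3 and Axl 2 each. In contrast, Egr1 region 1 and Bhlhe40 region 1 ranked higher in HSC. Housekeeping genes had 6 of 20 regions called in HSC and 0 in BMDM, among them regions near Actb, Ywhaz and Eef1a1, against 4.81% over all distal regions and 3 of 61 and 4 of 73 near stem cell factors.

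Of all distal regions, those with the widest gaps towards HSC were nearest to Rph3al (chr11:75965653-75967445, intergenic), Hs6st1 (chr1:36087416-36091299, intron), Glyctk (chr9:106159643-106160565, intergenic), Scap (chr9:110329009-110330076, intergenic) and Pxt1 (chr17:28927703-28932295, intergenic). The region near Rph3al was at 65.6 to 76.9 in HSC and at 0 in 4 BMDM lists and 6.13 in the fifth (adjusted p = 7.97e-08). The region near Scap has the start of a long noncoding RNA within 1000 bp. Those with the widest gaps towards BMDM were nearest to Acta1 (chr8:123882153-123883733, intron of Gm20388), Map3k14 (chr11:103223724-103225899, touching an exon), Ahnak2 (chr12:112792903-112799568, intron), Tmem189 (chr2:167714333-167717332, intergenic) and Efhd2 (chr4:141871342-141872887, intron). The region nearest to Acta1 was at 88.8, 97.1, 71.4, 89.9 and 71.9 in BMDM and at 0 in every HSC list (adjusted p = 6.51e-09). Among genes picked for their number of calls after the values were seen, 9 of 45 regions nearest to Gse1 ranked higher in HSC and 1 in BMDM, and 9 of 15 nearest to Lrp1, a lipoprotein and scavenger receptor gene, ranked higher in BMDM, against 4.81% and 7.42% over all regions. A region called in HSC had its nearest promoter called in HSC in 16.0% of cases (7.64% over all distal regions), and a region called in BMDM had it called in BMDM in 27.6% (13.4% over all).

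The regions also differed in position and letters, given here as a description. Of those called in HSC 55.1% were intergenic, against 40.9% of those called in BMDM and 41.0% of all. A long noncoding RNA started within 1000 bp of 14.9% of the HSC regions, 7.69% of the BMDM regions and 6.58% of all. AGATAA was found in 600 bp around the summit of 26.6% of the HSC regions, 16.6% of the BMDM regions and 19.3% of all. GAGGAA was found in 50.3%, 50.0% and 48.2%.

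Letters were then read in each sample without the calls, over 600 bp around the summits of its 5000 best ranked distal peaks, on both strands. AGATAA was held by 20.8%, 18.4%, 17.8%, 18.3%, 19.7% and 25% of peaks in HSC lists 1 to 6 and by 17.0%, 15.8%, 16.6%, 15.2% and 13.9% in the BMDM lists. Every HSC share lay above every BMDM share, a difference of 4.31 percentage points (two-sided exact permutation test, p = 0.00433 and 0.0159 after adjustment over 11 sets of letters). The same bases in reversed order, AATAGA, were held by 14.1% ± 1.35 and 13.3% ± 0.860 (adjusted p = 0.467). HSC list 6 had the highest share of AGATAA in HSC, as it had the highest red cell sum. It was also the highest HSC list for AATAGA (16.5%) and TGTGGT (39.6%) and the lowest in GC content (52.3%). Without HSC list 6 the AGATAA difference was 3.32 points, the smallest with any replicate left out. The red cell factor GATA1 binds the same letters as GATA2, and which factor or cells lay behind the share was not tested. GAGGAA was held by 49.8% ± 0.937 of peaks in HSC and 46.6% ± 1.06 in BMDM, and GAAANNGAA, letters bound by IRF factors, by 16.0% ± 0.652 and 14.2% ± 0.693 (exact permutation, adjusted p = 0.0159 for each). Both were higher in HSC. The GAGGAA difference of 3.15 points fell to 2.2 in the 2000 best peaks (exact permutation, adjusted p = 0.0536) and to 1.10 over 1000 bp (exact permutation, adjusted p = 0.218). Without any 1 BMDM list the AGATAA difference stayed between 3.87 and 4.64 points but no longer passed (adjusted p from 0.0524 to 0.0698), and without BMDM list 6 neither did GAGGAA (2.94 points) nor GAAANNGAA (1.49 points). TGTGGT was held by 36.6% ± 1.53 and 34.9% ± 1.10, and TTGCNNAA, bound by C/EBP factors, by 16.9% ± 1.07 and 15.7% ± 0.553, neither passing (exact permutation, adjusted p = 0.129 for each). TGANTCA, bound by AP-1, CAGCTG and CACGTG did not pass either (exact permutation, adjusted p between 0.467 and 0.950). The direction of TGANTCA turned with the window. Over 300 bp every HSC share (6.88% to 7.40%) lay above every BMDM share (5.46% to 6.66%), a difference of 1.14 points that passed (exact permutation, adjusted p = 0.00794). Over 1000 bp the difference was -2.17 points and passed the other way (exact permutation, adjusted p = 0.0476), with overlapping groups. GC content around the summits was 54.7% ± 1.34 in HSC and 55.6% ± 0.811 in BMDM (exact permutation p = 0.262).

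**Figure D5:**
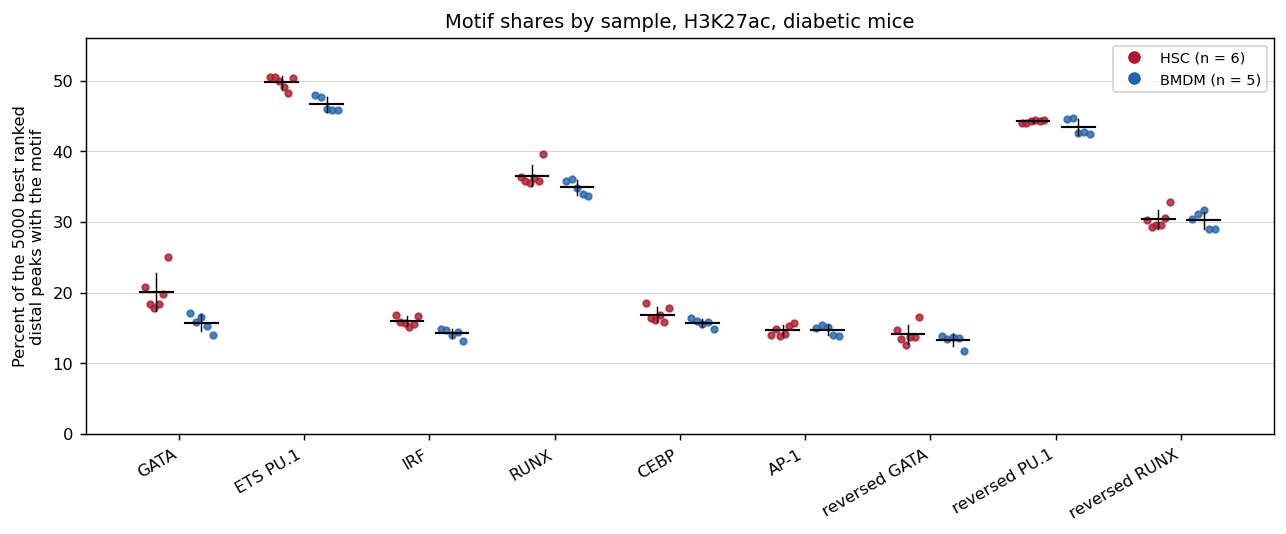
Percent of the 5000 best ranked distal H3K27ac peaks (y axis) that hold each set of letters in each of 6 HSC and 5 BMDM lists, with means and lines of 1 SD and with reversed letters at the right. For GATA the HSC lists sit between 17.8% and 25%, all above the BMDM lists, while the reversed GATA letters overlap.

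The same promoters and regions were read in control mice, in 6 HSC and 6 unstimulated BMDM lists that share no sample with the diabetic ones. Of the 1485 and 871 diabetic promoter calls, 1472 (99.1%) and 856 (98.3%) had the same sign in control mice (63.0% and 35.9% of all promoters tested had that sign), and 662 (44.6%) and 450 (51.7%) were called the same way. Of the 692 and 1067 distal calls, 686 (99.1%) and 1056 (99.0%) had the same sign (44.5% and 45.6% of all regions), and 356 (51.4%) and 564 (52.9%) were called the same way. No call went the opposite way. Over all features in control mice, 8.77% of promoters were called in HSC and 5.13% in BMDM, and 4.4% and 5.81% of distal regions. Red cell genes had 10 of 18 promoters called in HSC, and macrophage factors 13 of 20 in BMDM and 1 (Egr1) in HSC. The other stem and progenitor factors had 4 calls in HSC where diabetic mice had 7, and lysosome genes 5 in BMDM where diabetic mice had 8. Of the stem and progenitor surface genes, 3 were called in HSC and 2 in BMDM (Procr and Cd93), against 4 and 0 in diabetic mice. Runx1, which did not pass in diabetic mice, was called higher in BMDM in control mice, with a difference of -17.4 points (adjusted p = 0.000179). The difference between the -9.68 points of diabetic and the -17.4 points of control mice did not pass (limma interaction, adjusted p = 0.999). Runx1 region 4 had a difference of 5.55 points in control mice (adjusted p = 0.772) and of 28.4 in diabetic mice. A test of the difference between these differences did not pass for it (limma interaction, adjusted p = 0.917). Over the 13223 promoters and 14389 regions the limma interaction of cell type and disease gave 0 calls each, while 419 promoters (3.17%) and 524 regions (3.64%) had an unadjusted p below 0.05. The labels of BMDM lists 5 and 6 of the control mice had been put in doubt by an earlier analysis of these data. Without them, 98.8% and 97.7% of the promoter calls and 98.6% and 98.8% of the distal calls kept their sign.

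H3K4me3, a methyl mark of active start sites read in other libraries of the same groups, gave few calls. Lists were cut to 13730 intervals, the whole of the shortest list, HSC list 6, which reached down to a −log10 p of 3.74. Of 13026 promoters, 0 (0%) were called higher in HSC and 2 (0.0154%) higher in BMDM by limma, while 2134 (16.4%) had an unadjusted p under 0.05. The 2 were Pex11a, a peroxisome gene, and Wdr93, which share a promoter, at 87.2 ± 13.2 in BMDM and 0.584 ± 1.43 in HSC (adjusted p = 0.0271), and without HSC list 2, 3 or 4 or BMDM list 2, 4 or 5 this count was 0, without HSC list 1 it was 12. Of the H3K27ac promoters called in HSC, 739 of the 1156 tested for H3K4me3 (63.9%) differed in the same direction, against 48.8% of all promoters tested. Of those called in BMDM 608 of 825 did (73.7%), against 51.2% of all. Car2 was at 86.7 in HSC and 51.5 in BMDM for H3K4me3, Nrp1 at 24.3 and 82.3, and Pdgfb at 69.8 and 90.2. The promoter of Bhlhe41, at 5.47 and 87.7 in H3K27ac, stood at 61.3 in HSC and 61.6 in BMDM in H3K4me3.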

How the data were processed

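Lists of ChIP-seq peaks were used as deposited. For each peak the authors gave the fold over input (a ratio), the −log10 p and the −log10 q of MACS2, with the input library of the same name as background, and the mouse build GRCm38 (mm10). The submitters' processing notes also name Trim Galore 0.3.3, cutadapt 1.8, Bowtie2 2.2.6, Picard 2.18.14 and 2.19.2 and bedtools 2.19.1, without their order or settings. The lists hold no read totals, so depth per sample is unknown, and a longer list reaches weaker peaks.

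Summits of 1 interval were joined, intervals were ranked on −log10 p, and each list was cut to its best 20000. Promoters were windows of 1000 bp to either side of 93513 start sites of 21938 protein-coding genes (GENCODE M21), touched by at least 1 bp. Distal regions were merged intervals outside them. Features held by at least 2 of 11 lists were tested on rank percentiles with limma 3.58.1 (trend, no covariates, Benjamini-Hochberg adjusted p under 0.05), and single values by a two-sided exact permutation test. The scripts were tested on simulated data.

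Named promoters were a fixed set of cell type genes and, in each direction, the 5 called listed genes and 4 called genes outside the lists with the widest difference, with 5 distal regions in each direction. Further genes stand as members of their lists, and some genes and regions that the rule names are not reported here. The members, lists and tests were chosen with earlier results of these data known. Alternatives varied list length, ranking column, promoter width, overlap, filter, test, replicate block and each replicate left out.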

Additional observations from a re-analysis of the deposited data

Results flagged for a closer look

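Among 91 groups of 5 or 6 values, 14 had a highest or lowest sample whose gap to its neighbour was a larger share of the group's range than Dixon's critical value (0.71 for 5 samples, 0.625 for 6). Chance gives about 1 in 20 such groups. HSC list 6 stood above the other HSC lists for the letters TGTGGT, at 39.6% of distal peaks (gap of 0.782 of the range), and for the reversed letters TGGTGT, at 32.9% (0.644). BMDM list 6 stood below the other BMDM lists for AATAGA, at 11.8% (0.810). The promoter of Lpl was at 32.1 in HSC list 4 (0.795).

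In the other 10 groups a single list held the feature and the rest were at 0, which makes the gap 1 by construction. At promoters these were Kit at 20.1 in BMDM list 6, Zfp507 at 17.1 in BMDM list 5, Slc25a21 at 10.6 in BMDM list 4, Bhlhe41 at 32.8 in HSC list 2, Edil3 at 4.63 in HSC list 2 and Igf1 at 11.4 in HSC list 5. At distal regions they were the region near Rph3al at 6.13 in BMDM list 6, that near Hs6st1 at 4.96 in BMDM list 2, that near Glyctk at 11.1 in BMDM list 5 and that near Tmem189 at 15.9 in HSC list 4.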

How the results depend on the processing

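The counts depended on the test, list length and ranking. Against 1485 and 871 promoters higher in HSC and BMDM, the lists as deposited gave 51 and 24, a −log10 q of at least 5 gave 35 and 17, and ranking by fold gave 591 and 223. Against 692 and 1067 distal regions, the lists as deposited gave 1153 in HSC, a −log10 q of at least 5 gave 334 and 485, ranking by fold 332 and 589, the top 10000 intervals 78 and 247, the top 40000 intervals 1746 and 2004, the exact permutation test 236 and 535, and a filter of at least 4 lists 1101 in HSC. HSC held 39.3% of distal calls in the main setting, 24.0% with the top 10000 intervals and 50.4% in the lists as deposited. Fisher's exact test on occupancy gave 0 calls in each of the 4 sets, with 430 promoters and 1640 distal regions at an unadjusted p under 0.05. Its smallest p (Fisher, 0.00216) became 0.186 at promoters and 0.0584 at distal regions after adjustment. That p is reached only by features held by all lists of a group and by none of the other, and too few reached it for any to pass. The 0 calls therefore do not decide about single features. The cause of the other shifts was not tested. Other windows, overlaps and the log2 rank scale kept each count within 1.5 times.

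With each replicate left out, promoters ranged from 1084 to 1552 in HSC and from 695 to 831 in BMDM, and distal regions from 577 to 686 and from 843 to 1060. Same-numbered HSC and BMDM lists did not deviate together (correlations from -0.237 to -0.0133 at promoters and from -0.0830 to 0.00613 at distal regions), and nothing in the labels pairs them. With the replicate number as a block, 747 and 513 promoters and 441 and 679 distal regions were called, and 0 H3K4me3 promoters in BMDM. The block for H3K4me3 and the counts per gene list under other settings were chosen after seeing the data. Higher H3K4me3 promoters in BMDM numbered 0 with the top 10000 intervals and 0 to 12 with a replicate left out. Without BMDM lists 5 and 6 of control mice, 387 distal regions were called in HSC in place of 633.

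The log2 difference in peak number (-0.11) ranged from -0.31 to 0.11 with a replicate left out, with positive values without HSC list 6 (0.06) and BMDM list 2 (0.11). The distal share differed by -1.73 points, by -3.69 with the top 10000 intervals (exact permutation p = 0.0346), and by -2.35 to -1.33 with a replicate left out, passing without HSC list 6 (exact permutation p = 0.0397). For AGATAA the difference ranged from 3.32 to 4.75 with a replicate left out, for GAGGAA from 2.94 to 3.47 and for GAAANNGAA from 1.49 to 1.92. Without BMDM list 6 none of these 3 passed (exact permutation, adjusted p = 0.0698, 0.0524 and 0.0524), and AGATAA did not pass without any other BMDM list either (0.0524). GAGGAA differed by 2.2 points in the 2000 best peaks (exact permutation, adjusted p = 0.0536) and by 1.10 over 1000 bp (adjusted p = 0.218, exact permutation). TGANTCA differed by 1.14 over 300 bp, by -2.17 over 1000 bp and by -0.28 to 0.13 with a replicate left out, CACGTG by -0.15 to 0.14, TTGCNNAA by 1.41 in the 2000 best peaks, and TGGTGT by -0.20 in the 2000 best peaks and -0.36 to 0.49 with a replicate left out.

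None of the named promoters or regions turned its direction. Under settings other than leaving out a replicate, 341 values at promoters kept their side of the threshold and 72 no longer passed, 23 of them in the lists as deposited, 24 in Fisher's test and 19 at a −log10 q of at least 5, while 1 (Csf1r, held by at least 1 list) newly passed. At distal regions 122 kept it and 12 did not, 10 of them in Fisher's test, in which no feature passed. Ranked by fold, Gata2, Kit and Spi1 no longer passed. Macrophage factors then had 7 of 20 promoters called in BMDM, lysosome genes 3 of 17, and lipid, matrix and secreted genes 4 of 18. Red cell genes had 8 of 19 called in HSC. Of the stem and progenitor surface genes, 1 of 12 was called in HSC by fold and 0 of 6 with the top 10000 intervals. Over all 13160 promoters, 591 and 223 passed by fold.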

Other observations

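Some genes outside the lists gathered several called distal regions. In HSC, 5 of 12 regions nearest to Ago2, which encodes an Argonaute protein of RNA silencing, and 4 of 7 nearest to Ddit4, a stress-induced inhibitor of mTOR signalling, were called, and none of these in BMDM. In BMDM, 7 of 33 regions nearest to Zmiz1, 7 of 11 nearest to Sfi1, 5 of 18 nearest to Rptor, a subunit of mTOR complex 1, and 5 of 10 nearest to Ezh2, the methyltransferase of Polycomb repression, were called. Ezh2 also had 1 region called in HSC. Of all distal regions, 4.81% were called in HSC and 7.42% in BMDM. These genes were picked by their counts after the values were seen, and a gene with more regions had more chances of a call.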
